A study of Homo sapiens with 9 samples.

Results

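Transcript levels of 42 genes of autophagy and the lysosome were followed in SH-SY5Y cells after exposure to citrinin. The genes are 5 cargo receptors, 5 ATG8 genes, 11 genes of autophagosome initiation and conjugation, 2 lysosomal transcription factors, 5 lysosomal membrane proteins, 6 lysosomal proteases, 5 glycosidases and lipases, and 3 cofactors of the lysosome lumen. They were taken by symbol from the 61487 gene identifiers of the count tables, in a list drawn up with earlier results of these data known. All 42 were found, and all 42 were among the 17806 genes with enough reads to test. The RNA was from SH-SY5Y, an established human neuroblastoma line. Cells were kept for 72 h in MEM/F12 medium with fetal bovine serum and 0, 10 or 20 µM citrinin, a mycotoxin of food moulds, with 3 libraries a dose numbered as replicates 1, 2 and 3. The group at 0 µM is called vehicle below, although the labels do not name a solvent. Whether each replicate was a culture of its own is not stated, and p-values then measure only the spread between these libraries, which may be technical.

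Autophagy encloses cytoplasmic cargo in a double membrane, the autophagosome, and delivers it to the lysosome, where acid hydrolases break it down. Cargo receptors bind ubiquitin-tagged cargo on one side and lipidated ATG8 proteins (the LC3 and GABARAP families) on the other, while the ATG enzymes build the membrane and attach the ATG8 proteins to it. TFEB and TFE3 are transcription factors that bind CLEAR elements in the promoters of many lysosomal genes, and SQSTM1 (p62) is also known as a target of NRF2, the factor of the oxidative stress response. Neurons depend on this route to clear damaged proteins and organelles.

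The 9 libraries held 15678443 to 19604367 reads assigned to genes, and 3 reads in a library equalled 0.153 to 0.193 CPM, the count scaled to library size. All 10 markers of sympathetic neuroblasts were tested, with a summed level of 2509 to 3203 CPM in vehicle and 2081 to 2949 CPM at 20 µM. Of these, 7 were lower at 20 µM by the test with the replicate number as a block, described below, and 0 without it. CHGA, for example, differed by -0.40 ± 0.06 (log2 fold change ± SE, adjusted p = 0.000151). The 10 mesenchymal markers summed to 4787 to 6794 CPM in vehicle and 5240 to 7161 CPM at 20 µM, and 3 (VIM, CD44 and YAP1) were higher with the block. Of the other 7, which did not pass, 5 had negative differences (DCN, TWIST1, LUM, PRRX1 and COL1A1). Over all 17806 genes tested, 0.848% passed as higher and 1.36% as lower at 20 µM with the block. Macrophage markers, checked because macrophages are rich in lysosomes, summed to 0.907 to 2.23 CPM in vehicle and 1.601 to 2.65 CPM at 20 µM, with C1QA and C1QB at 0 reads. Glial markers summed to 6.54 to 9.98 CPM in vehicle and 9.15 to 9.92 CPM at 20 µM, with CDH19 at 0 reads, and epithelial markers to 34.1 to 50.1 and 41.0 to 46.6 CPM. In these 3 lists 2 of 7 macrophage, 4 of 7 glial and 4 of 5 epithelial markers had enough reads to test, and 0 passed. The 2 macrophage markers tested were CSF1R and CD14. With the block CSF1R, at 2 to 35 reads a library, differed by 1.21 ± 0.47 at 20 µM (adjusted p = 0.224), and CD14 by 0.27 ± 0.43. The part of these marker differences in the values below was not tested. In bulk RNA a gene can be lower because fewer cells of a type are present or because each cell holds less of its RNA, and these cannot be told apart.

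Libraries with the same replicate number deviated together from their dose means, whatever the dose. The test was therefore run as planned, on dose alone, and also with the replicate number as a block, which compares doses within a number. On dose alone 0% of the 17806 genes passed an adjusted p of 0.05 (Benjamini-Hochberg, edgeR's quasi-likelihood test) in each of the 3 comparisons of doses, with 387 genes at an unadjusted p below 0.05 for 20 µM against vehicle, 115 for 10 µM against vehicle and 210 between the doses. On dose alone DESeq2 called 11 genes at 20 µM, none of them among the 42. Among the 42 genes the lowest adjusted p on dose alone was 0.999997 for 20 µM against vehicle, 0.999842 for 10 µM against vehicle and 0.999986 between the doses. Dose differences below are therefore from the blocked fit, as log2 fold changes ± SE with n = 3 libraries a group. "Rose" is used only where the blocked fit passed, and no such call was made on dose alone.

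The RefSeq table of promoters (build GRCh38.p14, 250 bases before and 50 after each start) matched 37 of the 42 genes, with 56 start sites. The other 5 are CTSB, HEXA, LAMP2, MAP1LC3A and PSAP. Letters were searched on both strands: CACGTG, the E-box; TCACGTGA, the middle of the CLEAR element, which contains the E-box; and TGACNNNGC, the core of the antioxidant response element bound by NRF2. The E-box stood in 8 of the 56 promoters (14.3%), against 7.26% of all 35116 promoters in the table. The CLEAR middle stood in 5 (8.93%, against 0.980%), those of ATG3, LAMP1, MCOLN1, CTSA and GAA. The antioxidant core stood in 11 (19.6%, against 13.3%), of which 4 belonged to the 5 promoters of proteases and 3 to the 6 of glycosidases and lipase. None of the 10 promoters of cargo receptors and none of the 4 of ATG8 genes held an E-box. The sequences below are 1 of the 3 SQSTM1 promoters, that of GLA and the 5 with a CLEAR middle. SQSTM1 is shown as the gene that rose at 20 µM against vehicle, and GLA for the next smallest p among the 42. Each runs 5′ to 3′, with every match to the 3 motifs in capitals, joined where matches overlap.
SQSTM1, chr5:179820655-179820954, plus strand: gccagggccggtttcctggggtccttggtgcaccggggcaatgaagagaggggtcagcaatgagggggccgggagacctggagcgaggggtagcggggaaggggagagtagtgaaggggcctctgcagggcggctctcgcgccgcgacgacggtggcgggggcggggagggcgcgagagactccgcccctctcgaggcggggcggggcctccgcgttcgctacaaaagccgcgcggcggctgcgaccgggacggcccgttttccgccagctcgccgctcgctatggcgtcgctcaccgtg
GLA, chrX:101407876-101408175, minus strand: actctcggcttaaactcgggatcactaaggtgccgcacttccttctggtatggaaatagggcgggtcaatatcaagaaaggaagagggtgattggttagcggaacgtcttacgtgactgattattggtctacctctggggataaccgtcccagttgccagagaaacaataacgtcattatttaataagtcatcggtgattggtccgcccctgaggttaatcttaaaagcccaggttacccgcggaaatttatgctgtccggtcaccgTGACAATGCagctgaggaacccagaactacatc
ATG3, chr3:112561913-112562212, minus strand: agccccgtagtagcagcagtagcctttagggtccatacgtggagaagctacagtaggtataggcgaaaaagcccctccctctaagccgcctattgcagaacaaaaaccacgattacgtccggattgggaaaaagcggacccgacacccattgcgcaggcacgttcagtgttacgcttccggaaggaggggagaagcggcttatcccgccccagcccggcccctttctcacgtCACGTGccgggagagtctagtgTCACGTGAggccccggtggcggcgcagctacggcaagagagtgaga
LAMP1, chr13:113296989-113297288, plus strand: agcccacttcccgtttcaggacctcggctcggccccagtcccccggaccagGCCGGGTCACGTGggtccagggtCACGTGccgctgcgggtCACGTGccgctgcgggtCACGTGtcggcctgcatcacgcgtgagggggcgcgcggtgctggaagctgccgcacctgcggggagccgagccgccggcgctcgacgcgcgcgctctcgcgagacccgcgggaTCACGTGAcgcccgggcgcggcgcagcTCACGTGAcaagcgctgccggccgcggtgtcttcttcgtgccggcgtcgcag
MCOLN1, chr19:7522374-7522673, plus strand: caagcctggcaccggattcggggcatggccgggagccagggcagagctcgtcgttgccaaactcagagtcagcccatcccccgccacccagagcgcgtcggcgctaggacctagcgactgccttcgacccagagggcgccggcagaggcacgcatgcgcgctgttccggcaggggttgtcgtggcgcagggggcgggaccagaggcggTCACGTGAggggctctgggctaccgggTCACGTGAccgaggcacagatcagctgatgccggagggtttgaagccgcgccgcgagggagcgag
CTSA, chr20:45891085-45891384, plus strand: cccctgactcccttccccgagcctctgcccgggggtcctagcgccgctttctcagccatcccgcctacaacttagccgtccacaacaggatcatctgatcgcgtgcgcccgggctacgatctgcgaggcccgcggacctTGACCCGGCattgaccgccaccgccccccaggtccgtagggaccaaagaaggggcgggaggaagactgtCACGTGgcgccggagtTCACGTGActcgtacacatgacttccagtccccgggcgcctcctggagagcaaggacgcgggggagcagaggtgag
GAA, chr17:80101331-80101630, plus strand: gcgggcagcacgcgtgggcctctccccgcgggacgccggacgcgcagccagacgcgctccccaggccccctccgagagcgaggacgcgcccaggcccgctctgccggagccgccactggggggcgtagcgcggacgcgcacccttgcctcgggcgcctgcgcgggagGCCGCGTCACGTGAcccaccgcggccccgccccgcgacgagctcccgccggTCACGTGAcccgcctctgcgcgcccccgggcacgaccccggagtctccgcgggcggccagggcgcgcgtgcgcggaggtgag
The 3 SQSTM1 promoters held none of the 3 motifs, which says only that these letters are not within these windows. In GLA the single match is an antioxidant core. LAMP1 held 6 E-boxes, 2 of them within a CLEAR middle. A match of letters is a description and no evidence of binding. The dose differences of the 5 genes with a CLEAR middle at 20 µM were 0.06 ± 0.07 for ATG3, 0.08 ± 0.05 for LAMP1, 0.05 ± 0.09 for MCOLN1, 0.09 ± 0.05 for CTSA and 0.07 ± 0.05 for GAA. All 5 were positive, as were 35 of all 42 genes, and 0 of 5 passed the test.

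The level of each gene per kilobase of exon (RPKM, TMM-scaled) in vehicle ranged from that of a lumen cofactor, PSAP, down to that of an ATG8 gene, GABARAP. PSAP, the precursor of the saposins that present lipids to hydrolases, was highest at 244 ± 7.80 RPKM (SD, n = 3). CD63, a tetraspanin of late endosomes and lysosomes, followed at 107 ± 16.7 RPKM, and the cysteine protease CTSB at 62.4 ± 7.79 RPKM. LAMP1 (43.9 ± 4.26 RPKM) and GRN (41.5 ± 1.22 RPKM) overlapped in their spread, as did NPC2 (36.5 ± 3.63 RPKM) and SQSTM1 (32.0 ± 4.99 RPKM). These 7 genes were the ones at 30 RPKM or more. At the lower end 4 genes stood under 2 RPKM: TFEB (1.23 ± 0.226), HEXA (0.965 ± 0.140), CTSZ (0.522 ± 0.126) and GABARAP (0.257 ± 0.105). TFE3, the other transcription factor of the pair, stood at 16.6 ± 1.12 RPKM, above TFEB in every vehicle library.

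**Figure D1:**
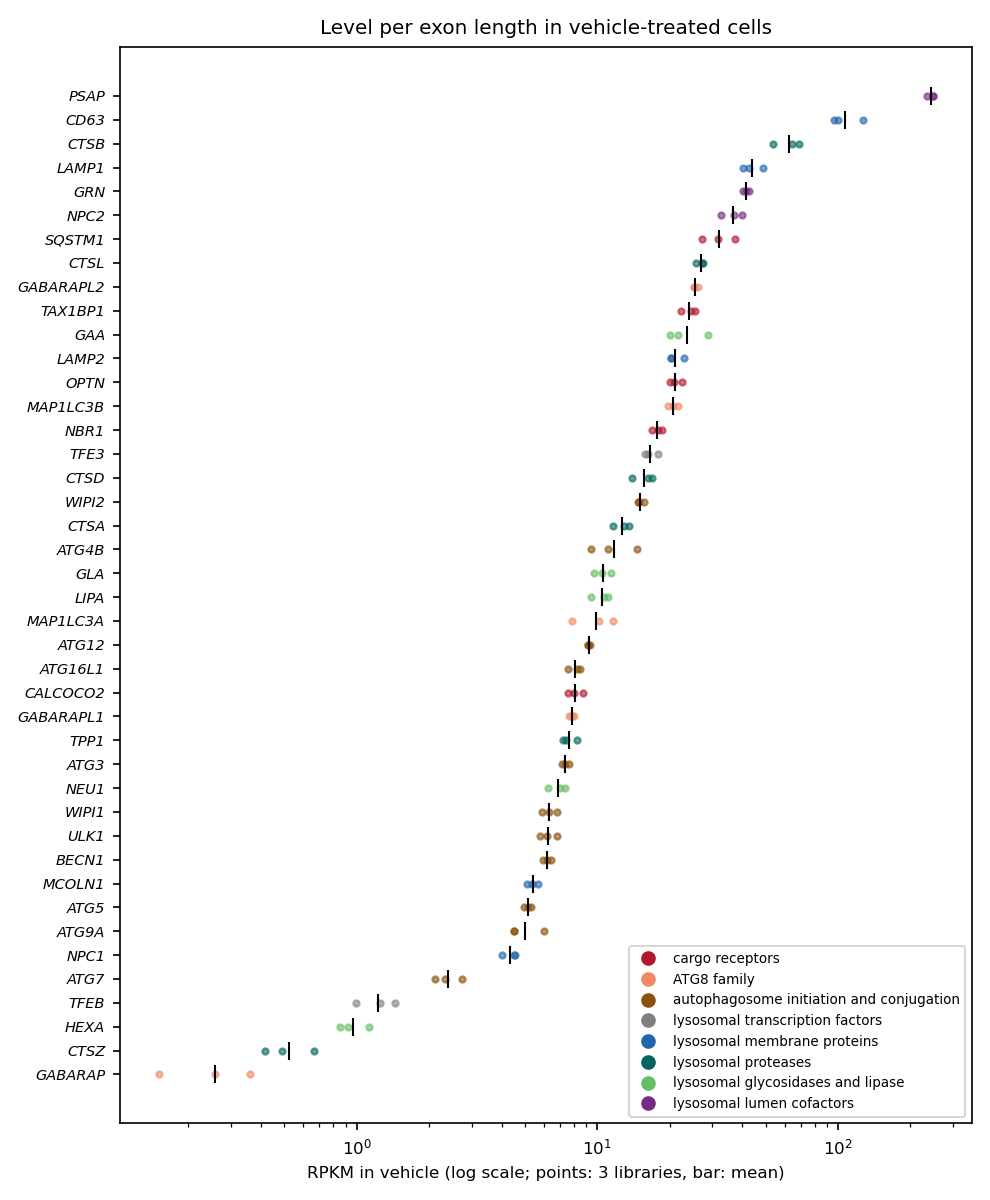
Level per exon length of the 42 genes in vehicle, in RPKM on a log axis. Points are the 3 libraries, black bars their mean and colours the 8 classes. PSAP stands highest at 244 RPKM and GABARAP lowest at 0.257 RPKM.

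Some of these levels are bounded by the annotation and by how reads were counted. The exon length used is that of all annotated exons of a gene joined. For SQSTM1 it is 7654 bases, where its longest coding transcript has 2986 bases. The order of genes by RPKM therefore also depends on the annotated exons. The library kit did not mark strand, and reads that fall on 2 genes were set apart. In GENCODE 29, 10 of the 42 genes share at least 10% of their exon length with another gene, and 19 share none. GABARAP shares 55.7% and rested on 123 reads over the 9 libraries, with 6 to 27 in a library, so its level is that of the reads the tables assign to it. CTSD shares 52.7% and ATG9A 38.8%. CTSZ shares none and had 191 reads in all. SQSTM1 shares 22.0% of its exon length with genes on the opposite strand, most of it (20.7%) with MRNIP, which had 7499 reads against 42128 for SQSTM1. The fold change of MRNIP at 20 µM was 0.02 ± 0.06 (log2, adjusted p = 0.954).

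At 20 µM against vehicle 1 of the 42 genes rose, SQSTM1, and none fell, where 0.848% of all genes passed as higher and 1.36% as lower with the block. Most of the others lay slightly above vehicle: 35 of 42 log2 fold changes were positive, with a median of 0.08 against -0.0016 for all genes (0.08 and -0.00098 on dose alone). In all 3 same-numbered pairs 23 genes were higher and 1, OPTN, was lower. The same held for 17.4% of all genes as higher and 17.8% as lower. At an unadjusted p below 0.05 there were 13 of the 42 with the block (2331 of all genes) and 2, ATG5 and GLA, on dose alone. These counts describe the 42 genes and carry no test of them as a group.

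**Figure D2:**
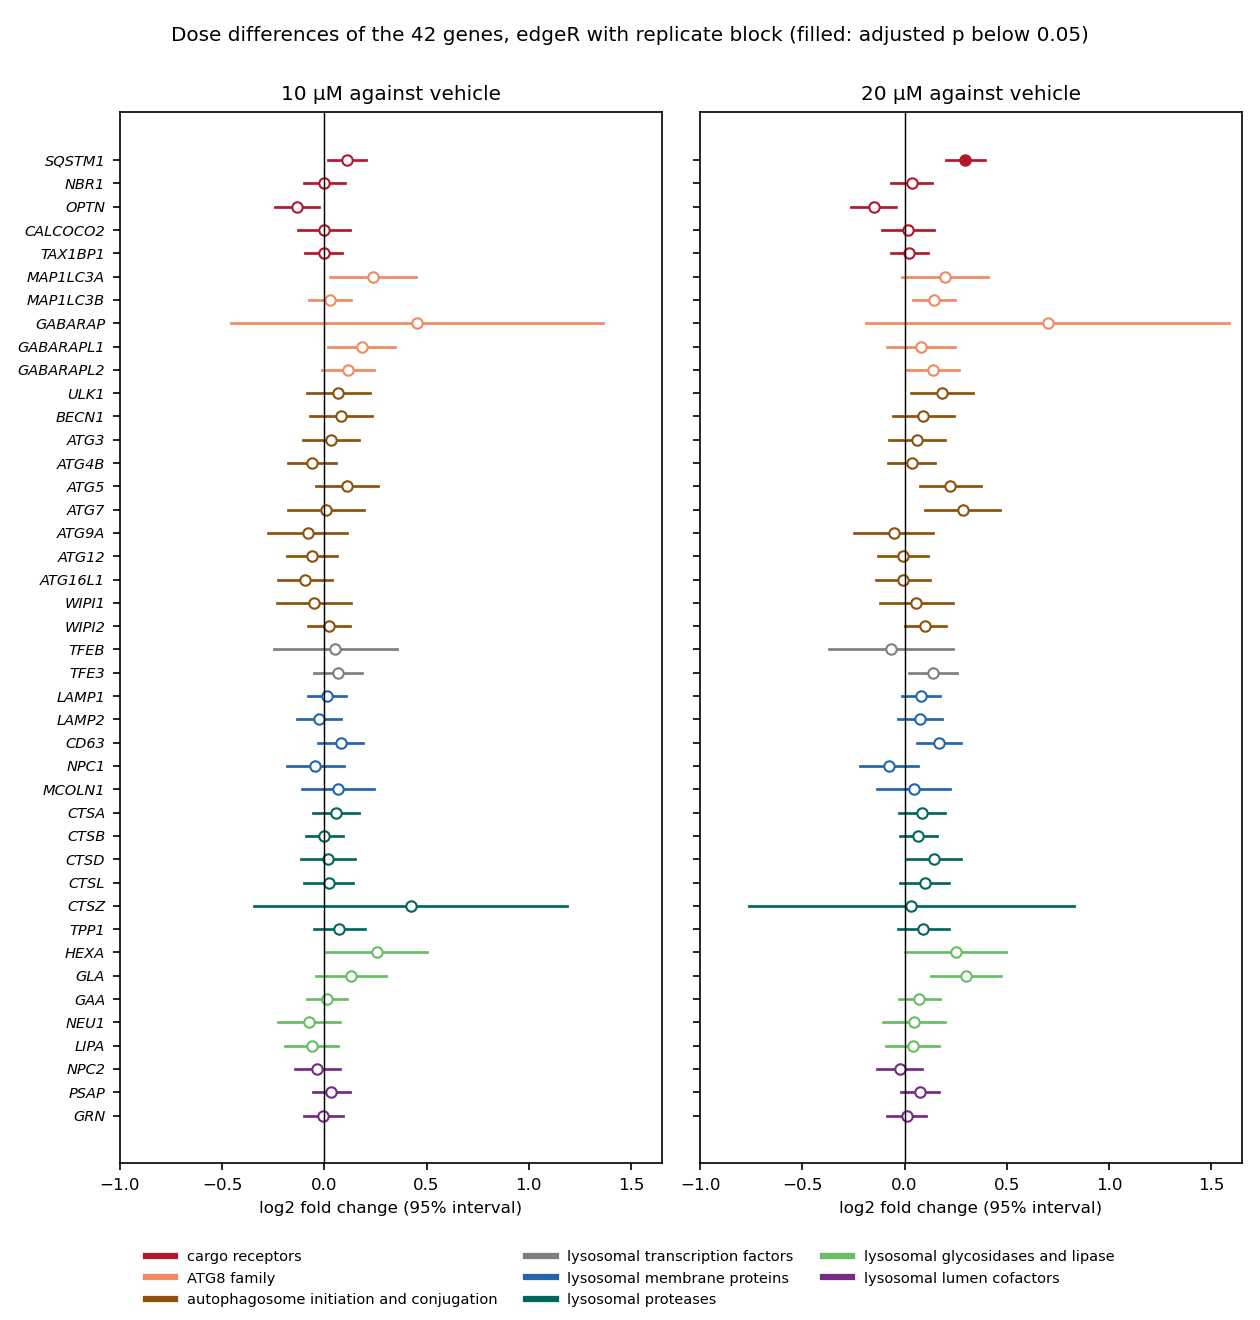
Log2 fold change of each of the 42 genes at 10 µM (left) and 20 µM (right) against vehicle, from edgeR with the replicate block, with 95% intervals and colours by class. The filled point, SQSTM1 at 20 µM (0.30), is the 1 call at an adjusted p below 0.05, and the widest intervals belong to GABARAP and CTSZ.

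Among the 5 cargo receptors, SQSTM1 rose at 20 µM by the blocked fit and the other 4 did not pass the test. SQSTM1 (ENSG00000161011, chr5:179806398-179838078, plus strand) encodes p62, which bundles ubiquitin-tagged proteins and binds LC3. Its level was 208, 243 and 284 CPM in vehicle replicates 1, 2 and 3, 236, 267 and 289 CPM at 10 µM, and 260, 312 and 330 CPM at 20 µM. Within each replicate number it was higher at each step of dose, while the groups overlapped, since vehicle replicate 3 lay above replicate 1 at 20 µM. The difference at 20 µM was 0.30 ± 0.05 (95% interval 0.20 to 0.39, 1.23-fold, adjusted p = 0.000229 with the block and 0.999997 on dose alone, where the unadjusted p was 0.0546). With the block the adjusted p stayed below 0.05 in 8 of 9 leave-outs of a library or replicate number. Without the 3 libraries of replicate 3 it was 0.0506, with a difference of 0.35.

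OPTN (ENSG00000123240, chr10:13099449-13138308), a receptor for damaged mitochondria and bacteria, was the 1 gene lower in all 3 pairs. Its level was 116, 103 and 107 CPM in vehicle, 99.1, 98.8 and 98.3 CPM at 10 µM, and 105, 89.8 and 98.3 CPM at 20 µM. At 10 µM all 3 libraries lay below all 3 of vehicle, and at 20 µM the groups overlapped. Groups apart as lower at 10 µM against vehicle were found for 1 of the 42 genes and for 347 of all 17806. The difference at 20 µM was -0.15 ± 0.05 (adjusted p = 0.158). NBR1 (0.04 ± 0.05), CALCOCO2 (0.02 ± 0.06) and TAX1BP1 (0.02 ± 0.04), 3 further ubiquitin- or galectin-linked receptors, lay near 0, with 95% intervals from -0.11 to 0.14. The class median was 0.02, and it ranged from -0.01 without replicate 2 at 20 µM to 0.07 without replicate 1 at 20 µM.

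All 5 ATG8 genes had positive differences at 20 µM, with a median of 0.14 (0.09 without vehicle replicate 2), and 0 of 5 passed the test. MAP1LC3B (ENSG00000140941, chr16:87383995-87404779), the LC3 gene most used as an autophagosome marker, stood at 104, 115 and 110 CPM in vehicle, 105, 124 and 108 CPM at 10 µM, and 116, 132 and 117 CPM at 20 µM. Every 20 µM library lay above every vehicle library though the nearest of them, replicate 1 at 20 µM and replicate 2 of vehicle, lay close together. The difference was 0.14 ± 0.05 (adjusted p = 0.150). GABARAPL2, which acts in vesicle transport as well, stood at 76.8, 76.4 and 79.4 CPM in vehicle, 76.8, 96.1 and 80.3 CPM at 10 µM, and 77.2, 94.1 and 85.6 CPM at 20 µM. Replicate 1 hardly differed between doses and replicate 2 carried most of the difference of 0.14 ± 0.06 (adjusted p = 0.320), which was 0.04 without vehicle replicate 2. MAP1LC3A gave 0.20 ± 0.10 and GABARAPL1 0.08 ± 0.08. GABARAP gave 0.70 ± 0.43, with a 95% interval from -0.19 to 1.59 and 123 reads in all.

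Of the 11 genes that start the autophagosome or conjugate ATG8 proteins, 8 were positive at 20 µM, 5 in all 3 pairs, and 0 passed. Their median was 0.06, and 0.03 without vehicle replicate 3. ATG7 (ENSG00000197548, chr3:11272309-11557665), the E1-like enzyme that activates ATG12 and the ATG8 proteins, stood at 18.6, 20.6 and 24.2 CPM in vehicle, 20.5, 18.6 and 24.6 CPM at 10 µM, and 21.9, 26.5 and 28.7 CPM at 20 µM. It was near vehicle at 10 µM and higher in all 3 pairs at 20 µM, with a difference of 0.28 ± 0.09 (adjusted p = 0.102). Without replicate 1 at 20 µM its adjusted p was 0.0410, the only 1 of 9 leave-outs in which it passed. The adjusted p was 0.580 without all of replicate 3, and the difference was 0.20 without replicate 2 at 20 µM. ATG7 shares 18.1% of its exon length with VGLL4 on the opposite strand, which differed by -0.04 ± 0.06. ATG5 (ENSG00000057663, chr6:106045423-106325791), the partner of ATG12 in the complex that sites lipidation, had the highest share of variation with dose among the 42 genes (88.5% of its sum of squares of log2 CPM). Its level was 28.1, 29.1 and 30.1 CPM in vehicle, 30.6, 31.5 and 32.1 CPM at 10 µM, and 34.5, 34.4 and 33.1 CPM at 20 µM, so that the 3 groups did not overlap. Of all 17806 genes, 367 had groups apart as higher at 10 µM against vehicle and 422 at 20 against 10 µM. The difference at 20 µM was 0.22 ± 0.07 (adjusted p = 0.124).

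The kinase ULK1 gave 0.18 ± 0.07, with replicate 1 going from 51.9 to 72.0 CPM and replicates 2 and 3 from 43.9 to 45.4 and from 47.1 to 47.3 CPM. WIPI2, which binds phosphoinositides on the forming membrane, gave 0.10 ± 0.05, BECN1 of the lipid kinase complex 0.09 ± 0.07, ATG3, the E2-like enzyme, 0.06 ± 0.07 and WIPI1 0.06 ± 0.09. The protease ATG4B (0.03 ± 0.06), ATG12 (-0.01 ± 0.06), ATG16L1 (-0.01 ± 0.06) and the membrane protein ATG9A (-0.05 ± 0.09) lay nearest to or below 0.

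The 2 transcription factors differed in sign. TFE3 (chrX:49028726-49043486) stood at 69.3, 67.5 and 76.6 CPM in vehicle, 71.9, 74.1 and 77.5 CPM at 10 µM, and 80.3, 75.9 and 78.7 CPM at 20 µM. It was higher at each step within each replicate number, with a difference of 0.14 ± 0.06 (adjusted p = 0.257), and the groups overlapped. TFEB stood at 5.61, 7.09 and 8.15 CPM in vehicle, 5.36, 7.09 and 9.34 CPM at 10 µM, and 4.28, 6.86 and 9.07 CPM at 20 µM. Replicates 1 and 2 were lower at 20 µM and replicate 3 higher, and the difference was -0.07 ± 0.15 (adjusted p = 0.904). With the block it changed sign between leave-outs, from -0.20 without all of replicate 3 to 0.06 without all of replicate 1. TFEB and TFE3 are known to be controlled largely by their move to the nucleus, which RNA levels do not measure.

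Of the 5 lysosomal membrane genes 4 were positive at 20 µM and 0 passed. Their median was 0.08, and 0.04 without all 3 libraries of replicate 2. CD63 (chr12:55725323-55729707) stood at 262, 253 and 333 CPM in vehicle, 258, 307 and 329 CPM at 10 µM, and 297, 297 and 357 CPM at 20 µM. It was higher in all 3 pairs at 20 µM, while vehicle replicate 3 lay above replicates 1 and 2 at 20 µM. Its difference was 0.17 ± 0.05 (adjusted p = 0.102), and 0.10 without vehicle replicate 2. The adjusted p was 0.0154 when only these 2 groups entered the blocked fit. With all 3 groups CD63 passed in 0 of 9 leave-outs, and its adjusted p was 0.685 without vehicle replicate 2. LAMP1, a main glycoprotein of the lysosomal membrane, stood at 232, 245 and 279 CPM in vehicle, 227, 260 and 277 CPM at 10 µM, and 232, 275 and 294 CPM at 20 µM. Replicate 1 was level across doses, and the difference was 0.08 ± 0.05 (adjusted p = 0.462), and 0.04 without vehicle replicate 2. LAMP2 (0.08 ± 0.05), the calcium channel MCOLN1 (0.05 ± 0.09) and the cholesterol exporter NPC1 (-0.08 ± 0.07) completed the class.

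The 11 lysosomal enzymes, 6 proteases and 5 glycosidases or lipases, were all positive at 20 µM, 9 of them in all 3 pairs, and 0 passed. Their median was 0.09. GLA (ENSG00000102393, chrX:101397803-101408012), alpha-galactosidase A, the enzyme lacking in Fabry disease, came closest to the threshold. Its level was 22.0, 26.0 and 23.8 CPM in vehicle, 23.2, 28.1 and 27.3 CPM at 10 µM, and 29.3, 28.5 and 30.3 CPM at 20 µM. Every 20 µM library lay above every library of the other groups, and each replicate number was higher at each step. The difference was 0.30 ± 0.08 (95% interval 0.13 to 0.47, adjusted p = 0.0572), close in size to that of SQSTM1 with a wider error. With 2 groups in the blocked fit its adjusted p was 0.0270, without replicate 2 at 20 µM it was 0.0359, and without all 3 libraries of replicate 2 it was 0.0283. With all 3 groups in the fit it passed in only 2 of 9 leave-outs. Without all of replicate 3 the adjusted p was 0.588, and without replicate 1 at 20 µM the difference was 0.23.

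HEXA, the alpha subunit of beta-hexosaminidase, stood at 14.1, 11.6 and 10.7 CPM in vehicle, 13.6, 15.0 and 14.8 CPM at 10 µM, and 17.6, 12.3 and 13.6 CPM at 20 µM. The groups overlapped and the difference was 0.25 ± 0.12 (adjusted p = 0.375). It was 0.12 without replicate 1 at 20 µM and 0.35 without replicate 2 at 20 µM. The aspartic protease CTSD stood at 50.7, 43.6 and 52.7 CPM in vehicle, 51.5, 48.5 and 48.9 CPM at 10 µM, and 57.7, 49.97 and 54.6 CPM at 20 µM. It was higher in all 3 pairs at 20 µM, by 0.14 ± 0.06 (adjusted p = 0.325). The cysteine protease CTSL stood at 65.2, 61.02 and 64.5 CPM in vehicle, 65.3, 61.8 and 66.5 CPM at 10 µM, and 65.4, 65.9 and 72.9 CPM at 20 µM. Its groups did not overlap at 20 µM against vehicle though replicate 1 was level across doses, and the difference was 0.10 ± 0.06 (adjusted p = 0.498), and 0.06 without replicate 3 at 20 µM.

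The remaining enzymes spanned 0.03 to 0.09. They were the serine peptidase TPP1 (0.09 ± 0.06), CTSA (0.09 ± 0.05), which protects the sialidase NEU1 (0.05 ± 0.07), the alpha-glucosidase GAA (0.07 ± 0.05), CTSB (0.07 ± 0.04), the acid lipase LIPA (0.04 ± 0.06) and CTSZ (0.03 ± 0.39). Of the lumen cofactors, PSAP stood at 804, 761 and 805 CPM in vehicle, 788, 831 and 807 CPM at 10 µM, and 837, 832 and 831 CPM at 20 µM. Its 20 µM libraries all lay above vehicle, by 0.08 ± 0.04 (adjusted p = 0.490), and by 0.04 without vehicle replicate 2. The cholesterol carrier NPC2 stood at 102, 89.7 and 110 CPM in vehicle, 98.7, 93.3 and 101 CPM at 10 µM, and 102, 95.03 and 98.2 CPM at 20 µM. It gave -0.02 ± 0.05 (adjusted p = 0.910), with a sign that changed between leave-outs, and GRN, progranulin, gave 0.01 ± 0.05.

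Groups that did not overlap at 20 µM against vehicle were thus found for 5 of the 42 genes as higher (MAP1LC3B, ATG5, CTSL, GLA and PSAP) and for 0 as lower, where 3.4% and 3.35% of all genes had such groups. A level higher at each step within all 3 numbers was found for 5 (SQSTM1, ATG5, TFE3, CTSL and GLA), and lower at each step for 0, where the shares of all genes were 1.48% and 1.73%. SQSTM1 is absent from the first set and the lone gene past the adjusted threshold.

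**Figure D3:**
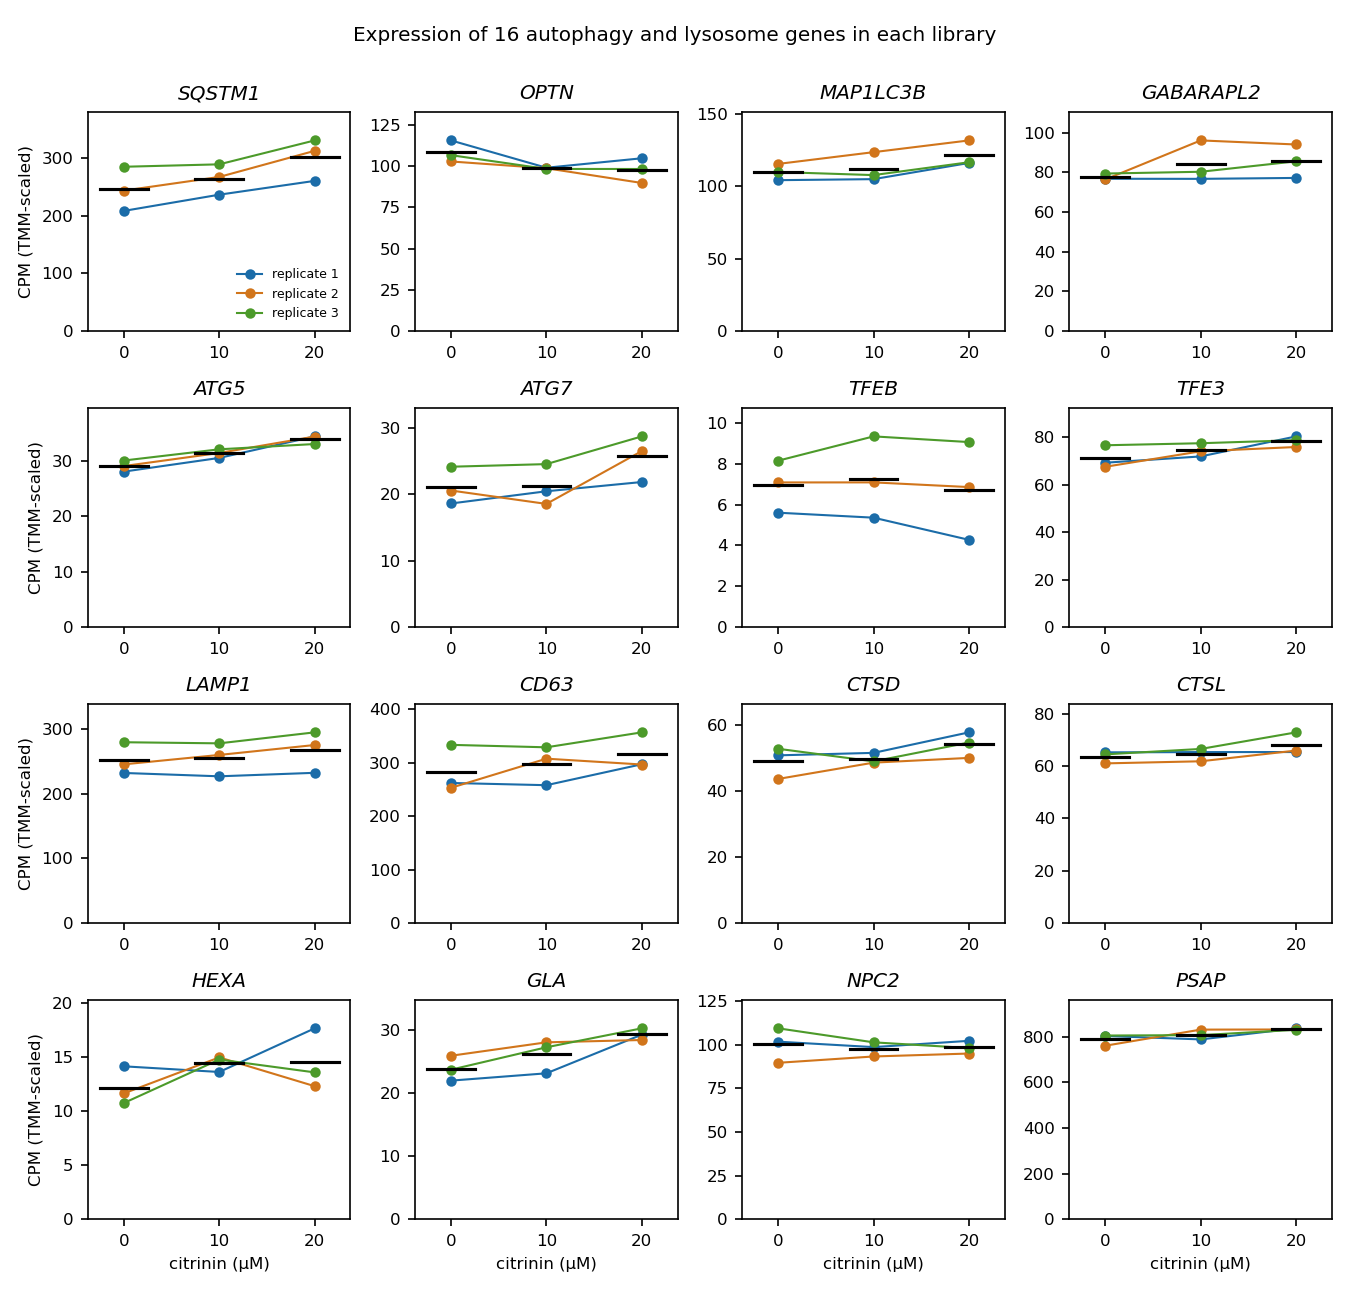
TMM-scaled CPM of 16 genes by citrinin dose, each axis from 0, with 1 coloured line per replicate number and black bars for the mean of 3 libraries. SQSTM1 goes up along each line from vehicle to 20 µM while its lines stay apart, and the ATG5 lines lie together and go up from 28.1 to 30.1 CPM in vehicle to 33.1 to 34.5 CPM at 20 µM.

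At 10 µM against vehicle none of the 42 genes passed, with adjusted p of 0.9997 or more with the block, where 0.0337% of all genes passed as higher and 0% as lower. The median was 0.02, 26 were positive and 16 negative, and 5 had an unadjusted p below 0.05 (640 of all genes): SQSTM1 (0.11 ± 0.05), OPTN (-0.13 ± 0.05), MAP1LC3A (0.24 ± 0.10), GABARAPL1 (0.18 ± 0.08) and HEXA (0.26 ± 0.12). Between 20 and 10 µM none passed either, where 0.18% of all genes passed as higher and 0.264% as lower. SQSTM1 came closest at 0.19 ± 0.05 (adjusted p = 0.0668), and its adjusted p was 0.0213 without replicate 1 at 20 µM and 0.0405 without all of replicate 1. These were the only 2 of 9 leave-outs in which SQSTM1 passed, and without all of replicate 3 its adjusted p was 0.998. Of the 11 initiation and conjugation genes all were above 0 in this step, with a median of 0.09, while the ATG8 median was 0.18 from vehicle to 10 µM and 0.02 from 10 to 20 µM. The 3 comparisons share libraries, so their values are not independent of each other.

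The wider pathway was described with 6 further lists of 146 genes, of which 142 were tested. Of these 103 were positive at 20 µM against vehicle, with a median of 0.05, 20 had an unadjusted p below 0.05, and 1 passed. Over all 17806 genes 8801 were positive, 2331 had an unadjusted p below 0.05, and 0.848% passed as higher and 1.36% as lower. That gene was CTSK (ENSG00000143387, chr1:150796208-150808323), a collagen-degrading cathepsin. CTSK rose from 20.6, 16.2 and 16.5 CPM in vehicle through 21.7, 18.8 and 19.0 CPM at 10 µM to 26.2, 20.7 and 22.8 CPM at 20 µM, higher at each step within each number. Its groups at 20 µM and vehicle did not overlap, and the difference was 0.38 ± 0.09 (adjusted p = 0.0150 with the block, 0.999997 on dose alone). The call held in 4 of 9 leave-outs. Without vehicle replicates 1, 2 or 3 its adjusted p was 0.0634, 0.157 and 0.147, without replicate 3 at 20 µM 0.153, and without all of replicate 3 0.427.

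Of 15 tested subunits of the vacuolar ATPase, the pump that acidifies the lysosome, 14 were positive at 20 µM, 9 in all 3 pairs, with a median of 0.11 and 0 past the threshold. The 38 other hydrolases had a median of 0.06 with 33 positive, and CTSK was their 1 call. Medians were 0.04 for 20 other selective autophagy genes, 0.04 for 31 other autophagosome genes, 0.02 for 16 other membrane genes and 0.03 for 22 genes of lysosomal sorting and nutrient signalling, with 0 calls in each.

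The replicate number went with larger differences than dose did. With dose in the model, 23 of the 42 genes differed between replicate numbers at an adjusted p below 0.05 (edgeR's quasi-likelihood F test), where 43.3% of all genes did. Replicate numbers held a median of 60.3% of a gene's sum of squares of log2 CPM and doses 17.1%, against 55.1% and 11.4% over all genes. In 6 of the 42 (14.3%) dose held more than the replicate number, against 21.3% of all genes. These were ATG5 (88.5% for dose), GLA (63.6%), PSAP (55.2%), TFE3 (51.6%), OPTN (50.7%) and HEXA (34.5%). SQSTM1, for which dose held 39.5% and the replicate number 57.7%, was not among them.

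**Figure D4:**
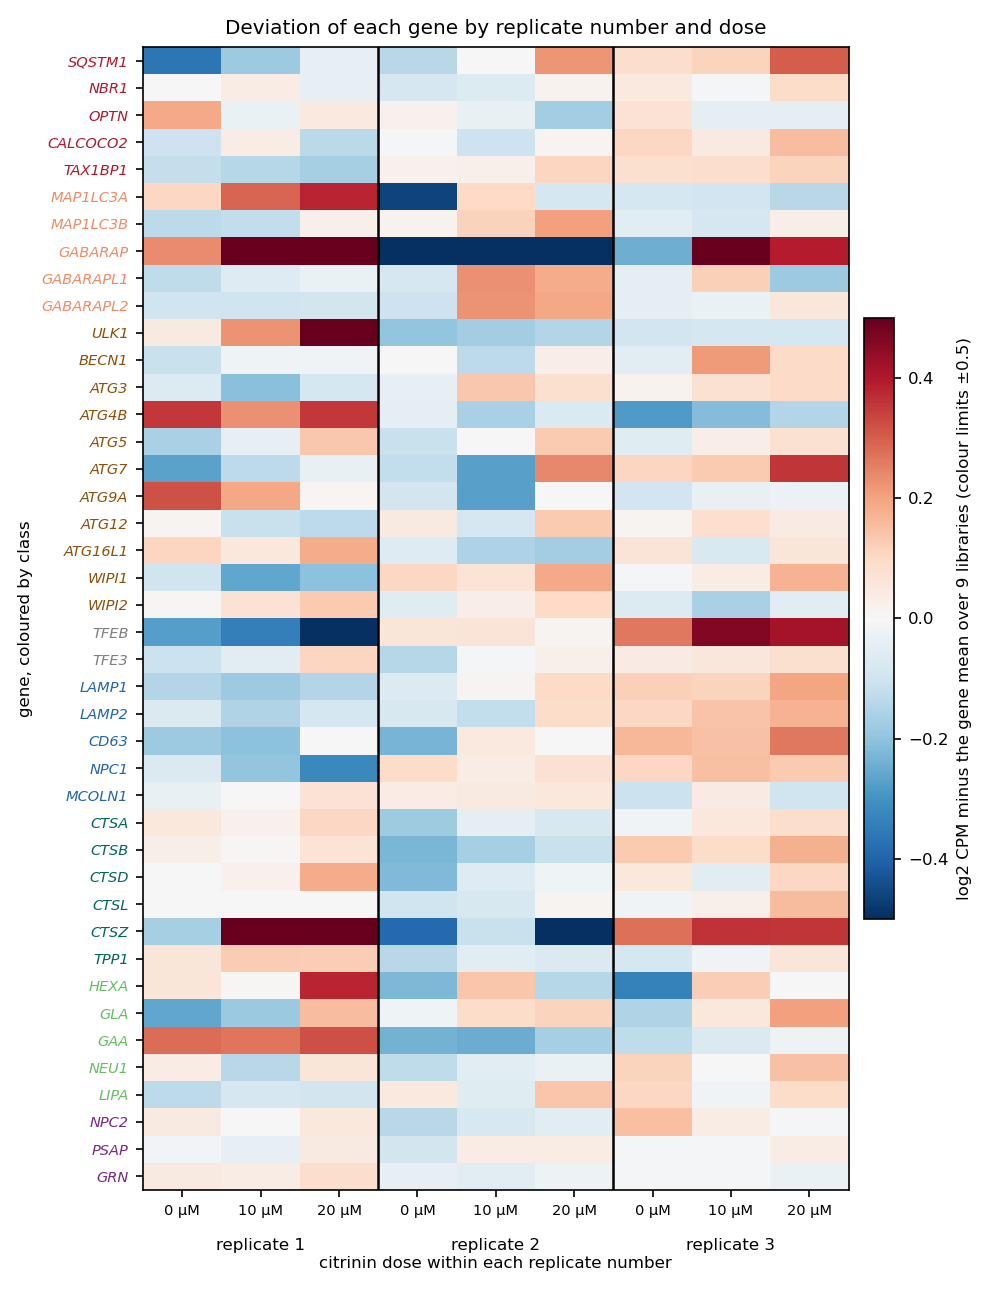
Log2 CPM of each of the 42 genes minus its mean over the 9 libraries, with the 3 doses side by side within each replicate number and gene names coloured by class. Colours are limited to ±0.5, so GABARAP, CTSZ and some TFEB values lie beyond the scale. GAA and ATG4B are high in replicate 1 at every dose, TFEB, CD63 and LAMP1 are high in replicate 3, and SQSTM1 deepens with dose inside each number.

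The calls between pairs of replicate numbers are described here by gene and class, and no test compared the classes. Replicate 2 against 1 gave 9 genes higher and 12 lower, where 19.4% and 17.4% of all genes were called. The 3 largest were GABARAP (-1.56 ± 0.45), CTSZ (-1.04 ± 0.39) and GAA (-0.51 ± 0.05), and 5 of the 6 proteases were among the lower (CTSA, CTSB, CTSD, CTSZ and TPP1). GAA, with 148, 147 and 153 CPM in replicate 1 at 0, 10 and 20 µM against 104, 103 and 109 CPM in replicate 2 and 112, 116 and 120 CPM in replicate 3, kept this gap at every dose. The replicate number held 97.4% of its sum of squares and dose 2.2%. GABARAP and CTSZ rest on 6 to 33 reads a library.

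Replicate 3 against 1 gave 12 genes higher and 5 lower, where 19.3% and 17.9% of all genes were called. TFEB (0.80 ± 0.15), ATG4B (-0.53 ± 0.06) and MAP1LC3A (-0.37 ± 0.10) differed most among these. In the membrane class 4 of 5 genes were higher, LAMP1 (0.30 ± 0.05), LAMP2 (0.24 ± 0.05), CD63 (0.32 ± 0.05) and NPC1 (0.32 ± 0.07), and in the cargo receptors 3 of 5, SQSTM1 (0.36 ± 0.05), TAX1BP1 (0.24 ± 0.04) and CALCOCO2 (0.17 ± 0.06). Between replicates 3 and 2 there were 4 higher and 1 lower, where 5.86% and 5.88% of all genes were called. The 3 largest of these were CTSB (0.30 ± 0.04), CD63 (0.25 ± 0.05) and LAMP2 (0.18 ± 0.05). The SQSTM1 difference between replicates 3 and 1 was thus close in size to its difference between 20 µM and vehicle (0.30 ± 0.05). What a replicate number stands for is not given in the labels, and the cause of these differences was not tested.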

How the data were processed

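Total RNA of 9 SH-SY5Y libraries was sequenced, 3 each at 0, 10 and 20 µM citrinin. The submitters' processing notes name FastQC, cutadapt, STAR, GRCh38 and edgeR. Not given in the sources used here: their versions and the gene annotation counted. For each library the authors deposited raw counts per gene, jointly and by strand. The 2 strands were about equal (ratio 1.007 to 1.020), so joint counts were taken. Left out of library sizes were unmapped reads (2.86% to 3.62%), multiply mapped reads (2.22% to 2.61%), reads without a gene (6.75% to 7.98%) and reads on more than 1 gene (9.51% to 10.1%). A deposited table of log2 CPM was not used.

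Of 61487 identifiers 61369 had a symbol and 58312 were in GENCODE 29 (GRCh38), the source of coordinates and exon lengths. Of 36838 genes with a read, 17806 passed edgeR's filterByExpr and were tested. Dose groups were compared as planned with edgeR's quasi-likelihood test (version 4.0.16 in R 4.3.3), robust, with TMM factors of 0.989 to 1.013 and all 9 libraries in 1 fit, and p-values were adjusted over all genes tested (Benjamini-Hochberg). The replicate numbers in the sample titles were taken to pair the samples: deviations from the dose means correlated at 0.457 to 0.685 in the 9 same-numbered pairs, above a limit of 0.1, and at -0.545 to 0.139 in the 18 others. A blocked fit, with replicate number beside dose, is therefore given next to the planned one. Differences between replicate numbers were tested with dose as a factor. The typical coefficient of variation was 0.195 on dose alone (6 residual degrees of freedom) and 0.0552 under the block (4). CPM and RPKM are TMM-scaled, and 95% intervals are from the blocked fit. Each SE was derived from the test, as the absolute log2 fold change divided by the square root of its F statistic. The intervals were built on this SE. Shares of the sum of squares used log2 CPM with a prior count of 2. The scripts were tested on simulated counts.

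The members, classes and further lists were chosen with earlier results of these data known. Values in every library are given for genes past the threshold and for the 2 genes of each class with the smallest blocked p at 20 µM, and differences for the 3 genes that differed most among those called between each pair of replicate numbers. Values of GAA and ULK1 by replicate were added after they were seen. Alternatives were other size factors, no filter, DESeq2 1.42.0, limma-voom (limma 3.58.1), only 2 groups in the fit, and leaving out libraries or replicate numbers.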

Additional observations from a re-analysis of the deposited data

How the results depend on the processing

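With the replicate block, the number of genes called at 20 µM against vehicle went from 0 to 393, at 10 µM against vehicle to 6 and between the doses to 79, and the number of the 42 genes called at 20 µM from 0 to 1. DESeq2 with the block gave 266, 6 and 68 genes and 1 of the 42, and limma-voom with the block 381, 7 and 77 and 1 of the 42. With only the 2 groups compared in the blocked fit there were 644, 12 and 30 genes, and 3 of the 42 (SQSTM1, CD63 and GLA) at 20 µM. Without the block, DESeq2 called 11 genes and edgeR without a filter 6 at 20 µM, none of them among the 42. Over all leave-outs the genes called ranged from 0 to 619 at 20 µM, 0 to 8 at 10 µM and 0 to 301 between doses. With the block the count of 393 became 204, 96 and 169 without vehicle replicates 1, 2 and 3, 619, 249 and 149 without 20 µM replicates 1, 2 and 3, and 48 without all of replicate 3. The cause was not tested. Among the 42, 0 to 2 were called at 20 µM and 0 to 1 between doses; the 0 with the block came without replicate 3, and 2 without replicate 1 at 20 µM (ATG7), replicate 2 at 20 µM or all of replicate 2 (GLA). Without the block, leaving out a library moved the difference of SQSTM1 between 0.19 and 0.41, and with it between 0.27 and 0.35. TFEB (-0.32 to 0.19) and NPC2 (-0.10 to 0.0504) changed sign between leave-outs and were never called. Without the vehicle libraries 4848 genes and 14 of the 42 differed between replicate numbers, against 7708 and 23, and leaving out 1 library gave 6100 to 8053 genes and 17 to 26 of the 42. DESeq2 gave 16 of the 42, and as its count over all genes is not given here, these 16 cannot be set against a share.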
